A study of Mus musculus with 37 samples.

Results

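The genes described here encode the proteins of the cytosolic ribosome, measured in the mammary glands of female C57BL/6 mice under 4 diet and exercise regimens. A gene was taken when an array probe set carried its symbol alone and that symbol began with Rpl or Rps and a digit, or was Rplp0, Rplp1, Rplp2 or Rpsa. S6 kinase genes and symbols marked as pseudogenes were left out. This gave 48 genes, 26 of the large and 22 of the small subunit by symbol, out of 12393 genes with a probe set of their own. They were covered by 100 probe sets, and the brightest one over all arrays stood for each gene. Rplp1, Rpl5 and Rpl10 have no value here, because the probe sets that could measure them list several genes.

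The mice were 9 weeks old when assigned, and the regimens ran for 6 weeks. The control group (AL) ate without limit, and a second group (AL+EX) ate without limit and could use a running wheel. Another group (CR) was fed 70% of the calories of the controls with all other nutrients kept whole, a restriction of 30%, and the last (CR+EX) had the restricted diet and a wheel. Left and right thoracic glands, about 60 mg each, were pooled, and their total RNA was put on Affymetrix arrays, 10 for AL and 9 for each of the other groups. The labels do not say how many mice stand behind an array, so p-values measure the spread between arrays. The values are linear signals scaled by the depositors to a common trimmed mean, and differences below are differences in log2(signal + 16).

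A ribosome is built from a small subunit, which reads the messenger RNA, and a large subunit, which joins amino acids, and each holds ribosomal RNA and a set of small basic proteins made in near equal numbers. Their messenger RNAs are among the most abundant in any cell, and many begin with a cytosine and a run of pyrimidines, the 5′ terminal oligopyrimidine or TOP tract, through which mTOR signalling turns their translation up or down with nutrient supply. Calorie restriction lowers mTOR signalling in several tissues, and that control acts on translation, which arrays of RNA levels do not read.

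The start sites of the members are shown because the TOP tract is the sequence feature these genes are known for. RefSeq windows of build GRCm38.p6, 250 bases before and 50 from the annotated start on, were found for 42 of the 48 genes, and Rpl7, Rpl8, Rps14, Rps20, Rps29 and Rps4l had none. In 8 of the 42 genes (19%) the annotated first base was C and the next 4 bases were each C or T, against 3.01% of all 27025 genes with a window. The lines below give 15 bases before the start and 15 from it on, 5′ to 3′ on the strand of the gene, with the pyrimidine tract in capitals. The last pair, Rplp0 and Rpsa, had no such tract at the annotated base.
Rpl14, chr9:120571502-120571531, + strand: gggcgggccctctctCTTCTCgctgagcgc
Rpl35, chr2:39005117-39005146, - strand: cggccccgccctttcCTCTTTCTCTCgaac
Rpl38, chr11:114668565-114668594, + strand: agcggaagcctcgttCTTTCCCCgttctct
Rplp2, chr7:141447636-141447665, + strand: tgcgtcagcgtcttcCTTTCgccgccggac
Rps10, chr17:27635230-27635259, - strand: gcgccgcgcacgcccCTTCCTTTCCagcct
Rps18, chr17:33955651-33955680, - strand: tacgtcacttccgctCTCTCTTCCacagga
Rps27, chr3:90213634-90213663, - strand: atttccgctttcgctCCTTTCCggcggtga
Rps6, chr4:86857353-86857382, - strand: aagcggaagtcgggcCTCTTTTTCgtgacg
Rplp0, chr5:115559452-115559481, + strand: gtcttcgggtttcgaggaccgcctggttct
Rpsa, chr9:120127751-120127780, + strand: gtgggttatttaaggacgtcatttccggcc

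Start sites were taken from the annotation and not measured, so a tract that starts a few bases away is not counted. Within the 300-base windows, searched on both strands, the ETS-family motif CCGGAAG was present in 21 of 42 members (50%) against 9.93% of all genes. The shorter GGAAGT, which can overlap it, was in 19 members (45.2%, all genes 26.5%). GGGCGG, a letter run bound by Sp1, was in 24 members (57.1%, all genes 38.2%), and the E-box CACGTG, bound by Myc, in 4 (9.52%, all genes 8.09%). TATAAA occurred in 6 members (14.3%, all genes 15.7%). AAGATGGC and CCATCTTG, which overlap on opposite strands, were in 4 and 2 members (9.52% and 4.76%, all genes 3.19% and 2.42%). The 7 tested genes with a tract had a median diet difference of -0.07 and 5 were negative, and the 34 without one had a median of -0.06 and 23 were negative.

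Of the 48 genes, 47 passed the filter on dim genes, which kept 9294 genes with a mean above 6.71 on the log2 scale. Rpl14, a large-subunit protein, was left out with a median signal of 85.1 over all arrays and a range from 12.9 to 128.6. Mean log2 signal lay above 12 for 33 members, while the median of all tested genes was 8.77. The other 14 included all 6 members named as paralogs of another ribosomal protein (Rpl22l1, Rpl39l, Rpl3l, Rpl7l1, Rps27l and Rps4l) and 8 core proteins, among them Rps6, Rps25, Rps27 and Rpl27a. Levels of different probe sets are not compared further, since each probe set responds differently. Between arrays of 1 group the median residual SD of the members was 0.30, against 0.34 over all tested genes, and 34 of 47 members lay below that median. Most members were brighter than the median tested gene, and genes of like brightness were not compared. This spread also holds the differences between runs of arrays described below. Rpl6, Rpl8 and Rpl10a, all of the large subunit, had the smallest residual SD (0.17, 0.17 and 0.18). Rpl27a (1.5), Rpl41 (0.86) and Rpl39l (0.79) had the largest.

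The arrays are not one even series. Their title numbers fall into 4 runs, with 8, 11, 10 and 8 arrays, each run holding all 4 groups; the labels do not say that a run was a batch. In 15 arrays, among them all 8 of run 4, the mean of 10 B lymphocyte genes was 7.72 or more on the log2 scale, and in the other 22 it was 7.17 or less. The tissue markers were present: the luminal epithelial list had array means from 7.55 to 9.96, the adipocyte list from 12.07 to 13.61 and the skeletal muscle list from 12.36 to 14.59. In 5 arrays, 4 of them in run 1, the 3′ probe set of the Gapdh control was more than 2 times as bright as its 5′ probe set, up to 7.03 times. With whole tissue, fewer cells of a type and less RNA per cell cannot be told apart.

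Averaged over the 47 members, signal per array was 12.11 ± 0.18 (SD, n = 10) in AL, 12.11 ± 0.19 (n = 9) in AL+EX, 12.08 ± 0.13 (n = 9) in CR and 12.02 ± 0.10 (n = 9) in CR+EX. The groups overlapped over most of their range. The lowest array of every group lay between 11.87 and 11.92, and the highest ranged from 12.42 in AL to 12.17 in CR+EX. Within each group the highest array belonged to run 4.

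**Figure D1:**
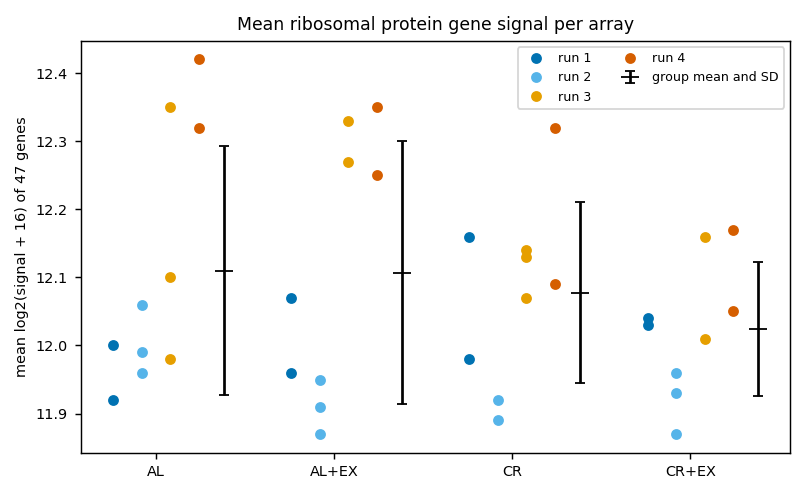
Mean log2(signal + 16) of the 47 tested ribosomal protein genes on each of the 37 arrays (points, coloured by run of title numbers) with the group mean and SD beside them. The groups overlap, with means from 12.02 to 12.11, and the highest array of each group is one of run 4.

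The first comparison asks whether calorie restriction altered the expression of these genes, taken as CR and CR+EX minus AL and AL+EX. No member passed the threshold (0 of 47, limma, Benjamini-Hochberg adjusted p under 0.05), while 8.75% of all tested genes did. At an unadjusted p under 0.05 there were 8 of 47 members (17%), against 23.9% of all tested genes. Differences were small: the median was -0.07, beside -0.02 over all tested genes, and 33 of 47 members were negative (70.2%; all tested genes 55.2%). Centring each array on its own median shifted every gene by the same amount and put the member median at -0.01, with 27 of 47 negative. The count of negative members therefore moves with the scaling, while the distance of the members from all genes does not move with that centring. For 43 of 47 members the 95% confidence interval of the difference lay within 0.5 log2 on either side of 0, and the exceptions were Rpl27a, Rpl39l, Rpl41 and Rps4l.

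**Figure D2:**
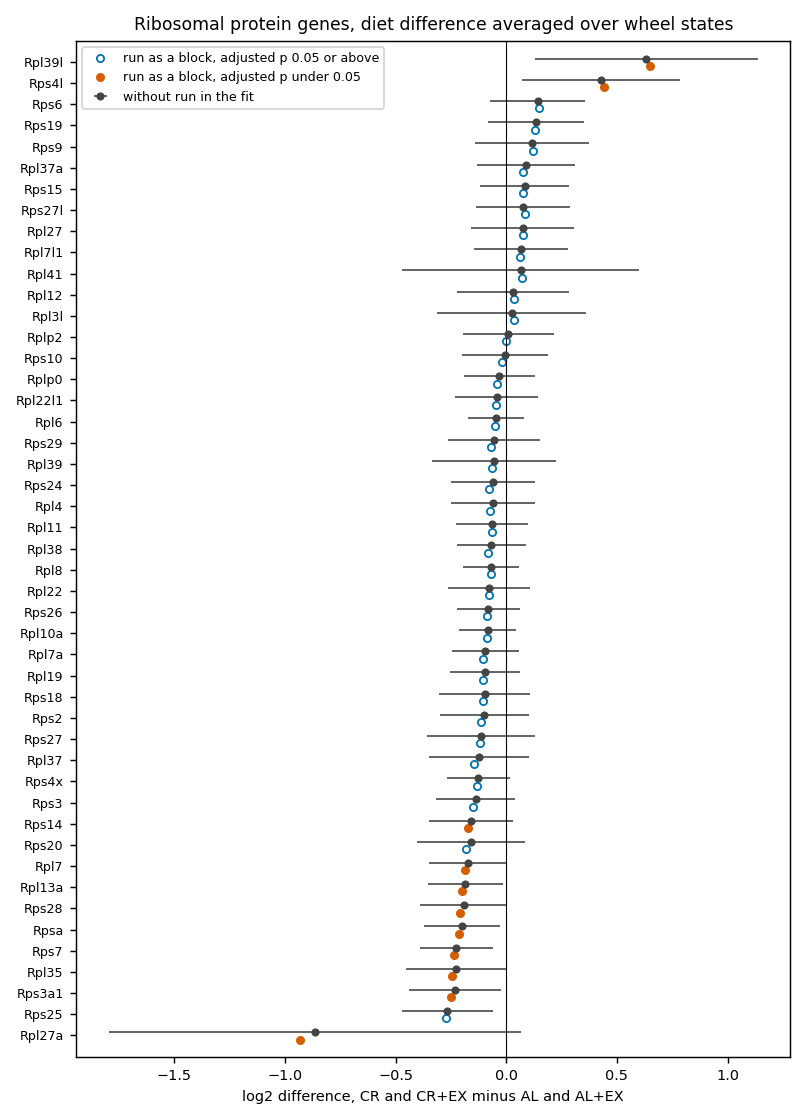
Difference in log2(signal + 16) between restricted and unrestricted mice, averaged over wheel states, for the 47 tested genes. Dark grey points with 95% confidence intervals come from the fit without run; open blue and filled orange points come from the fit with run as a block, orange where the adjusted p is under 0.05 (11 genes). Most points lie just below 0, with Rpl39l (0.63) and Rps4l (0.43) at the top and Rpl27a (-0.86) at the bottom.

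Among small-subunit proteins, Rps7, which is needed for maturation of the small subunit, had the smallest p. Its signals (lowest, median, highest) were 8884, 10450 and 14410 in AL, 7358, 9694 and 14140 in AL+EX, 7547, 9051 and 12090 in CR, and 7344, 9007 and 9712 in CR+EX. The restricted groups had lower medians and lacked the highest arrays, yet their ranges overlapped with those of the fed groups. The difference was -0.23 ± 0.08 (SE), a fold of 0.86, with an adjusted p of 0.074. Rps25, a protein used by several viral and cellular internal initiation sites, was at -0.27 ± 0.10 with an adjusted p of 0.091. Its signals were 158.4, 239.9 and 308.5 in AL, 186.8, 254.8 and 346 in AL+EX, 127.9, 201.8 and 343.9 in CR, and 145, 183.8 and 220.9 in CR+EX. The CR+EX arrays stopped short of the AL+EX median, while the CR arrays covered nearly the whole range of the fed groups.

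Rpsa, the small-subunit protein also known as the laminin receptor, showed the same shape. Its signals were 7412, 9105 and 12700 in AL, 6729, 8757 and 13620 in AL+EX, 7053, 7519 and 9162 in CR, and 7005, 7986 and 9111 in CR+EX. The highest restricted array lay close to the AL median, whereas the fed groups ran higher from a similar floor. The difference was -0.20 ± 0.08 with an adjusted p of 0.13. Rps3, which also acts in DNA repair, was at -0.14 ± 0.09 (adjusted p 0.34). Rps6, the substrate of the S6 kinases downstream of mTOR, was at 0.14 ± 0.11 (adjusted p 0.45), with medians of 451.1, 442.6, 485.9 and 498.4 in AL, AL+EX, CR and CR+EX.

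Of the large-subunit proteins, Rpl13a, which also silences specific messenger RNAs in inflammation, was at -0.19 ± 0.08 with an adjusted p of 0.16. Its median signal was 10130 in AL, 9786 in AL+EX, 9375 in CR and 8736 in CR+EX, and the group ranges overlapped. Rpl11, which binds Mdm2 when ribosome assembly fails, was at -0.06 ± 0.08 (adjusted p 0.68). The stalk proteins Rplp0 and Rplp2, which recruit elongation factors, were at -0.03 ± 0.08 and 0.01 ± 0.10, with adjusted p of 0.86 and 0.97. Rplp0 had medians of 10130, 10080, 10580 and 9862 in the 4 groups, so the stalk gene that is often taken as a reference gene differed by little between them. The steadiest members gave narrow intervals: Rpl6 from -0.17 to 0.08, Rpl8 from -0.20 to 0.06 and Rpl10a from -0.22 to 0.05.

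Run carried more of the members' variation than group did. The run of title numbers took a median share of 0.42 of a member's variance and group 0.06, beside 0.26 and 0.09 over all tested genes. Differences between runs passed the test for 40 of 47 members and for 60.0% of all tested genes (limma F test on the run terms, group in the model). In 30 members both run 3 and run 4 had higher means than runs 1 and 2. Rpl4, a large-subunit protein of the exit tunnel, had the largest share, 0.81, with means of 13.40, 13.34, 13.78 and 13.92 in runs 1 to 4. Rpl22 and Rps25 had the smallest, 0.039 and 0.041.

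Other measures moved with the runs. The mean of the B lymphocyte genes had a run median of 6.85, 6.76, 6.85 and 9.35, and that of the skeletal muscle genes 13.61, 13.44, 13.74 and 14.18. By their mean over all arrays, 9 of 10 B lymphocyte genes with a value and 16 of 16 muscle genes passed the dim filter. That filter does not show detection on each array. The mean of the B lymphocyte genes fell to 6.29 on CR+EX array 5, below the cut of 6.71. Members were higher in the arrays high in B lymphocyte genes in 41 of 47 cases (median difference 0.22), and in 33 of 47 within runs 1 to 3 (median 0.08), where 7 such arrays stood against 22. Those arrays were also brighter as a whole: the log2 median over all probe sets was typically 7.84, against 7.72 in the other 22 arrays. The same count over all genes was not made, so these counts do not set the members apart from other genes. For Rpl4 the difference of the arrays high in B lymphocyte genes was 0.39 over all runs and 0.03 within runs 1 to 3, whereas for Rpsa it was 0.28 and 0.29. The part of these measures in the members' values was not tested beyond that.

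With run as a block in the fit, 11 of 47 members passed (23.4%), beside 18.8% of all tested genes. Higher under restriction were 2 members (all tested genes 8.63%), the paralogs Rpl39l (0.65, adjusted p 0.017) and Rps4l (0.44, adjusted p 0.048). Lower were 9 members (all tested genes 10.1%), 4 of the large subunit (Rpl13a, Rpl27a, Rpl35, Rpl7) and 5 of the small (Rps14, Rps28, Rps3a1, Rps7, Rpsa); those beyond the naming rule are named after their values were seen. Leaving aside Rpl27a at -0.93, these 9 lay between -0.25 and -0.17, folds of 0.84 to 0.89. Rps3a1, which binds initiation factors on the small subunit, had the smallest adjusted p (0.0031, difference -0.25 ± 0.06). Rps28, at the mRNA exit of the small subunit, followed with -0.21 ± 0.05 (adjusted p 0.0056). Quantile normalization without the block gave 8 members, all lower, beside 738 of 9294 genes, and these were the block's lower calls other than Rpl27a.

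Within single runs the diet difference was uneven. The member median was 0.04 in run 1, -0.04 in run 2, -0.09 in run 3 and -0.24 in run 4, while the median of all tested genes stayed between -0.04 and -0.0045. In run 1 14 of 47 members were negative and in run 4 42. Lower in all 4 runs were 11 members (23.4%; all tested genes 16.2%), namely Rpl13a, Rpl35, Rpl37, Rpl7, Rps14, Rps27, Rps28, Rps29, Rps3a1, Rps7 and Rpsa. Rpl39l alone was higher in all 4 (2.13%; all tested genes 11.3%). Rps7, for example, was at -0.01, -0.09, -0.53 and -0.28 in runs 1 to 4. In the fit without the block, which had no call, leaving out run 4 gave 1, Rpl39l (0.54, adjusted p 0.031); this alternative was chosen after seeing the data.

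Of the 6 paralogs, 5 were positive under restriction (median 0.07), against 9 of the other 41 members (median -0.08). Among these 5, the differences of Rpl3l (0.02), Rpl7l1 (0.07) and Rps27l (0.08) were smaller than their SE. The sign of Rpl7l1 also depended on the probe set, since its other probe set, nearly as bright, was at -0.12 ± 0.11. Rpl39l and Rps4l were dim, with mean log2 signals of 6.96 and 7.98, and Rpl22l1, Rpl3l and Rps27l were not (11.40, 11.06 and 11.89). Rpl39l, a relative of the exit-tunnel protein Rpl39 known from testis, had signals of 6.6, 105 and 175.1 in AL, 23.2, 85.5 and 186.3 in AL+EX, 10.6, 162.9 and 204 in CR, and 72.6, 177.1 and 211.7 in CR+EX. Medians were higher in both restricted groups, but the highest arrays of the fed groups passed those medians or came near them, and CR had 1 array at 10.6. Without run in the fit the difference was 0.63 ± 0.25, a fold of 1.55 (adjusted p 0.10). Rpl39 itself was at -0.06 ± 0.14 (adjusted p 0.86).

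Rps4l, a relative of the small-subunit protein Rps4x, had signals of 95.6, 239.6 and 353.8 in AL, 36.3, 215.2 and 396.4 in AL+EX, 234.3, 284.7 and 330.9 in CR, and 138.8, 275.2 and 369.4 in CR+EX. The CR arrays were tightly spaced and the AL+EX arrays were spread over the whole range. The difference was 0.43 ± 0.18 (adjusted p 0.12), while Rps4x was at -0.13 ± 0.07 (adjusted p 0.28). Both paralogs were lower in the arrays high in B lymphocyte genes: the medians differed by -0.72 for Rpl39l and -0.26 for Rps4l over all runs, and by -0.38 and -0.26 within runs 1 to 3. By group, the mean of those genes ran from 6.69 to 9.82 in AL, 6.46 to 9.65 in AL+EX, 6.48 to 9.09 in CR and 6.29 to 8.96 in CR+EX. Without the 15 arrays high in those genes the diet difference was 0.425 for Rpl39l (adjusted p 0.145) and 0.147 for Rps4l (adjusted p 0.641), against 0.63 and 0.43 over all arrays. Those 15 include all 8 arrays of run 4, where the diet differences of these 2 genes were largest (1.045 and 1.059). Leaving them out therefore removes that run as well, and the 2 cannot be told apart here.

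Rpl22 and its paralog Rpl22l1 gave -0.08 ± 0.09 and -0.04 ± 0.09. Rps27 and the p53-inducible Rps27l gave -0.11 ± 0.12 and 0.08 ± 0.10, and all 3 single-gene probe sets of Rps27l were positive (0.08, 0.11 and 0.08). Rpl7 and Rpl7l1 gave -0.17 ± 0.09 and 0.07 ± 0.10. None of these passed, with adjusted p of 0.66, 0.82, 0.62, 0.71, 0.21 and 0.76 in that order.

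**Figure D3:**
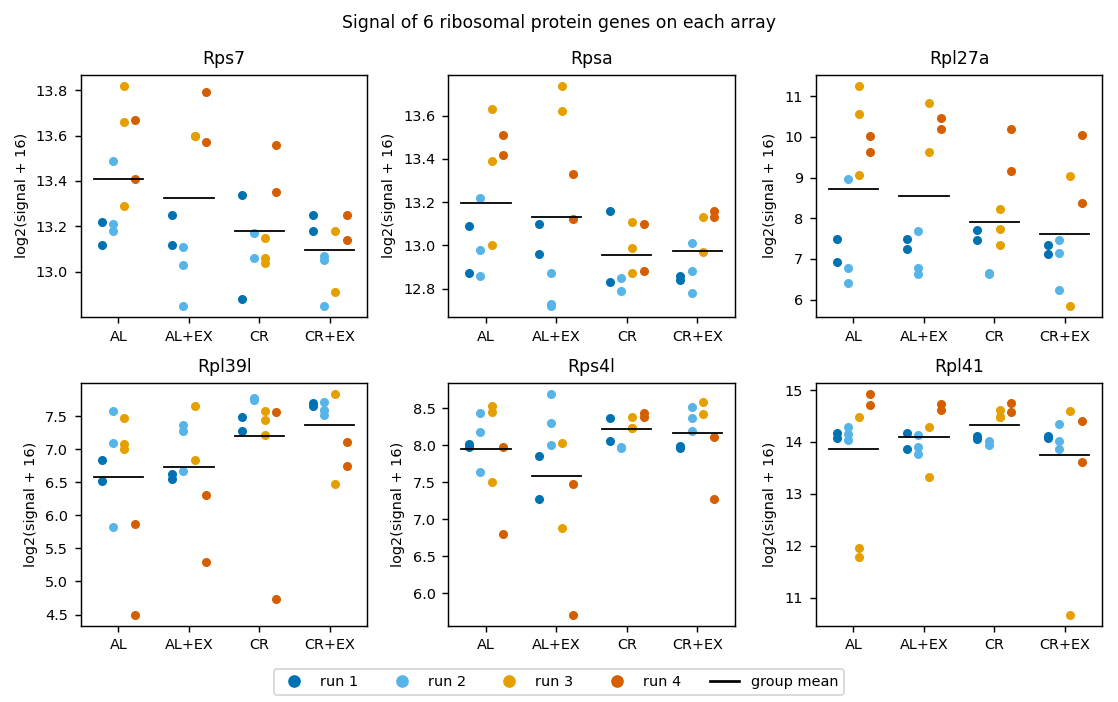
Log2(signal + 16) of Rps7, Rpsa, Rpl27a, Rpl39l, Rps4l and Rpl41 on each array, by group, coloured by run, with a black line at the group mean. Rpl27a is high in runs 3 and 4 in the fed groups, Rpl39l and Rps4l have their lowest arrays mostly in run 4, and Rpl41 falls far below the rest on 3 arrays of run 3.

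Rpl27a and Rpl41, both of the large subunit, varied most. The Rpl27a probe set had signals of 68.8, 499.9 and 2429 in AL, 83.8, 191.3 and 1820 in AL+EX, 83, 194.7 and 1164 in CR, and 41.5, 146.1 and 1035 in CR+EX. Its run means were 7.35, 7.03, 8.95 and 9.76 on the log2 scale, and the diet difference was 0.12, -0.41, -2.65 and -0.63 within runs 1 to 4. Over all arrays that difference was -0.86 ± 0.46 (adjusted p 0.25), a fold of 0.55, and with run as a block it was -0.93 ± 0.29 and passed (adjusted p 0.023). The second single-gene probe set of Rpl27a, at a median signal of 22.6, was below the dim filter. Rpl41, the smallest ribosomal protein, had medians of 18320, 18020, 22840 and 17160 in AL, AL+EX, CR and CR+EX. On AL array 6, AL array 8 and CR+EX array 7, all of run 3, it read 3966, 3496 and 1618, which is 21.6%, 19.1% and 9.42% of the group median. A second bright Rpl41 probe set stood at 80.6%, 47.1% and 55.3% of its group median on the same arrays. The dim Rpl41 probe sets stood at 90.6%, 168% and 67.9%, and at 102%, 151% and 71.1%, so they were not low on AL array 8.

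The second comparison asks about voluntary exercise, taken as AL+EX and CR+EX minus AL and CR. No member passed (0 of 47, limma) and neither did any other gene (0%). At an unadjusted p under 0.05 there was no member either, against 2.86% of all tested genes. The median difference was -0.04 (all tested genes -0.0043), and 34 of 47 members were negative (72.3%; all tested genes 51.8%). With run as a block the median was -0.017 and 27 of 47 were negative (57.4%; all tested genes 52.2%). The smallest p belonged to Rpl3l (0.30 ± 0.17), followed by Rpl19 (-0.13 ± 0.08) and Rpl22l1 (0.12 ± 0.09), each with an adjusted p of 0.9997. Intervals lay within 0.5 log2 of 0 for 42 of 47 members, with Rpl27a, Rpl39l, Rpl3l, Rpl41 and Rps4l outside.

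The last main comparison asks whether the wheel acted differently under the 2 diets, as the interaction of diet and wheel. No member passed (0 of 47; all tested genes 0%), and 1 member, Rpl3l, had an unadjusted p under 0.05 (2.13%; all tested genes 3.17%). Rpl3l was at -0.73 ± 0.33 (adjusted p 0.9995), Rpl41 at -0.83 ± 0.53 and Rpl39 at 0.40 ± 0.28. Without the 3 arrays lowest in Rpl41, a choice made after seeing them, its value was 0.05. Intervals were wide, and for 24 of 47 members they reached beyond 0.5 log2 on a side. The member median was -0.02 and turned to 0.03 with median centring.

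Rpl3l replaces Rpl3 in the ribosomes of heart and skeletal muscle. Its signals were 593.3, 2120 and 2619 in AL, 1744, 2815 and 3414 in AL+EX, 1238, 2490 and 3610 in CR, and 1137, 2233 and 3007 in CR+EX. The 3 lowest AL arrays lay below every AL+EX array, and the difference of AL+EX from AL was 0.66 ± 0.23 (unadjusted p 0.0069, adjusted p 0.64). The mean of 16 skeletal muscle genes ranged from 12.36 to 14.21 in AL, 13.33 to 14.59 in AL+EX, 13.44 to 14.06 in CR and 13.31 to 14.14 in CR+EX. Across the 37 arrays Rpl3l and that mean had a Pearson's r of 0.50 and a Spearman's rho of 0.30 (permutation test, 100000 resamples, p = 0.0023 and p = 0.071; the only such relation computed). Without AL array 1 and AL+EX array 8, farthest from the median in muscle genes, r was 0.21, so the pooled relation rests on those arrays. Within runs 1 to 4 r was 0.98, 0.73, 0.71 and 0.88 over 8, 11, 10 and 8 arrays; run 1 includes AL array 1, far below its other arrays in both measures. AL arrays 6 and 8 and CR+EX array 7, the 3 arrays low in Rpl41, were also among the 4 lowest in Rpl3l (1170.1, 826.3 and 1137.4). The part of muscle in the group differences of Rpl3l was not tested.

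**Figure D4:**
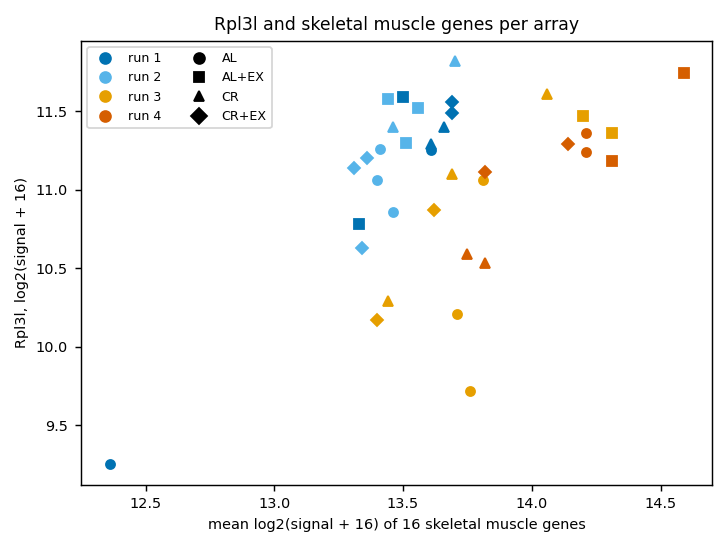
Rpl3l against the mean of 16 skeletal muscle genes, both in log2(signal + 16), 1 point per array, coloured by run and shaped by group. Within each colour higher muscle means go with higher Rpl3l (r from 0.71 to 0.98), while over all arrays r is 0.50 and rests on AL array 1 at the lower left and AL+EX array 8 at the far right.

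The pairwise comparisons share groups and are given side by side. No member passed in any of the 6 (limma). For CR against AL this was 0 of 47 where 0.441% of all tested genes passed, with a member median of -0.06 and 1 member, Rpsa, at an unadjusted p under 0.05 (all genes 14.9%). For AL+EX against AL it was 0 of 47 (all genes 0%), with 1 member, Rpl3l, at that level (all genes 6.46%). For CR+EX against AL it was 0 of 47 (all genes 0.624%), with a median of -0.12 and 4 members at that level (all genes 13.1%): Rpl13a, Rpl19 and Rps7 lower and Rpl39l higher. For CR+EX against AL+EX it was 0 of 47 (all genes 1.65%), with a median of -0.09 and 2 members at that level (all genes 15.2%), Rps25 lower and Rps4l higher. For CR+EX against CR it was 0 of 47 (all genes 0%), with a median of -0.05 and none at that level (all genes 0.893%). For CR against AL+EX it was 0 of 47 (all genes 1.97%), with a median of -0.05 and 1 member, Rps4l, at that level (all genes 16.5%).

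Run as a block gave 1 call in each of 4 of these pairs. Rps28 was lower in CR than in AL (-0.275 ± 0.07, adjusted p 0.024; all genes called 6.17%), and Rpl19, a large-subunit protein, was lower in CR+EX than in AL (-0.21 ± 0.06, adjusted p 0.042; all genes called 3.73%). Rps3a1 was lower than in AL+EX both in CR+EX (-0.29 ± 0.08, adjusted p 0.033; all genes called 6.00%) and in CR (-0.34 ± 0.08, adjusted p 0.010; all genes called 8.10%). Without the block these values were -0.24 ± 0.135, -0.22 ± 0.11, -0.29 ± 0.15 and -0.285 ± 0.15 in the same order, so the block narrowed the error more than it moved the value. Rps28 and Rps3a1 are named after their values were seen.

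Members moved together from array to array. After centring within groups, the median correlation over the 1081 member pairs was 0.28, against 0.01 over all gene pairs, and 32% of member pairs exceeded 0.5 (all gene pairs 3.34%). Pairs within the large subunit (0.24), within the small (0.30) and between them (0.29) were alike. Centring within run as well lowered the member median to 0.19 and the share above 0.5 to 14.2% (all gene pairs 1.57%). Rpl4 (0.66), Rpl19 (0.64), Rps24 (0.63) and Rpl13a (0.63) had the highest median correlation with the other members. Rps6 (-0.34), Rpl39l (-0.28), Rps4l (-0.21), Rps27l (-0.16) and Rpl12 (-0.15) had the lowest medians, while the paralog Rpl7l1 was at 0.37. Rpl22l1 (-0.07), Rpl3l (-0.06), Rpl22 (-0.05) and Rpl41 (-0.02) were also negative. After centring within run as well, Rps6 (0.05), Rpl39l (0.04), Rps27l (0.20), Rpl12 (0.07), Rpl22l1 (0.15) and Rpl3l (0.08) were positive. Rps4l (-0.07), Rpl22 (-0.03) and Rpl41 (-0.05) stayed negative, so the lowest values moved with run but not every sign did. These correlations describe the arrays, which share scaling, run and tissue makeup.

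**Figure D5:**
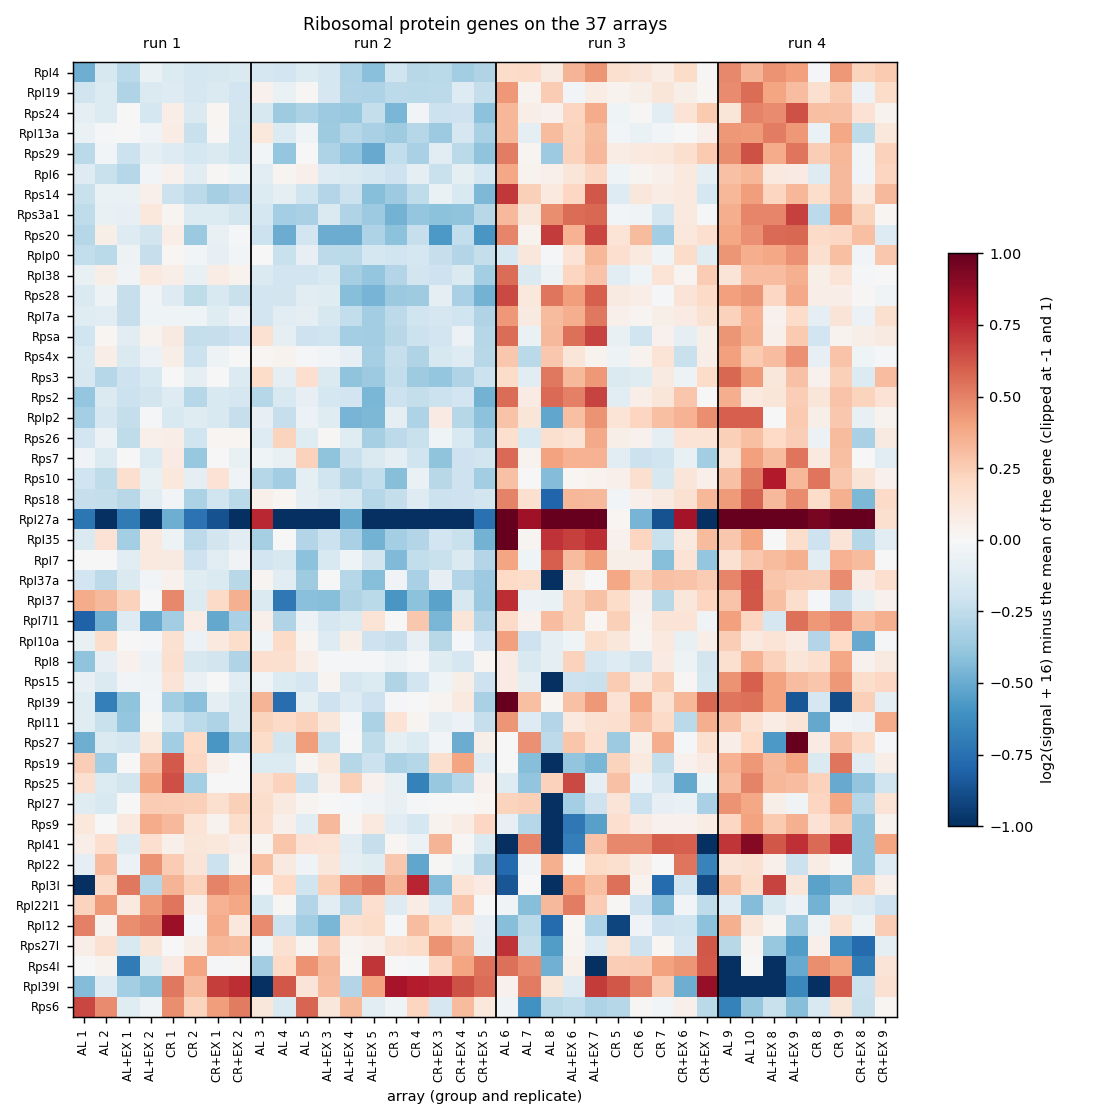
Log2(signal + 16) of each of the 47 tested genes minus its own mean, on 37 arrays ordered by run and group; red is above and blue below the mean, clipped at -1 and 1. Genes are sorted by their median correlation with the other members, from Rpl4 (0.66) at the top to Rps6 (-0.34) at the bottom. The upper block is pale blue in runs 1 and 2 and red in runs 3 and 4, most clearly in the fed groups, and the lowest rows run the other way.

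Probe sets not chosen for a gene also had few calls but leaned lower in a larger share than the chosen ones. Of the 41 unchosen single-gene probe sets that passed the dim filter, 34 were lower under restriction (median -0.096). Of the chosen ones 33 of 47 were lower (median -0.07). The share of lower probe sets over the whole array was not counted. Among the 41, 1 passed the threshold (limma with 1 row per probe set, 8.18% of all probe sets passed). That probe set, a dim one for Rpl41 with a median signal of 169.5, was at -0.60 ± 0.16 (adjusted p 0.014), whereas the chosen Rpl41 probe set was at 0.06 ± 0.27. A further 96 tested probe sets list a ribosomal protein gene together with other genes or pseudogenes. Of these, 83 were lower (median -0.11), with 1 past the threshold (-0.28 ± 0.08, adjusted p 0.032). Probe sets of a gene did not always rank alike: for Rpl27 the chosen one was at 0.08 ± 0.12 and the others at -0.24 ± 0.13 and -0.22 ± 0.11. For Rpl13a, only 1 of 3 other probe sets shared the sign of the chosen one.

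The rest of the translation apparatus is given from fixed lists, as diet differences averaged over wheel states. Mitochondrial ribosomal proteins, which build the separate ribosome of that organelle, had 8 of 74 genes higher (10.8%, all tested genes 4.19%). Lower were 0 of 74 (all tested genes 4.56%). Their median was 0.10, and 17 were negative. Mrps22 (0.34 ± 0.07, adjusted p 0.0030) and Mrps6 (0.54 ± 0.13, adjusted p 0.0052), both small-subunit proteins, had the smallest p. Fau, whose product is cut to release the small-subunit protein eS30, was at 0.11 ± 0.18 (adjusted p 0.76).

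Genes of ribosome assembly and rRNA synthesis had 1 of 44 lower (2.27%, all tested genes 4.56%) and none higher (all tested genes 4.19%), with a median of -0.08. The lower gene was Gnl2, a nucleolar GTPase of large-subunit assembly (-0.26 ± 0.08, adjusted p 0.033). Translation factors had 2 of 38 lower (5.26%, all tested genes 4.56%) and none higher, with a median of -0.04. These were the initiation factors Eif3a (-0.31 ± 0.10, adjusted p 0.037) and Eif5 (-0.20 ± 0.07, adjusted p 0.046). Among regulators of ribosomal protein synthesis 4 of 28 were lower and 1 higher, 17.9% called beside 8.75% of all tested genes. Pdcd4, an inhibitor of translation initiation that S6 kinase marks for destruction, was at -0.40 ± 0.10 (adjusted p 0.0094) and the transcription factor Sp1 at -0.66 ± 0.18 (adjusted p 0.017), while Mycn, of the Myc family, was at 0.85 ± 0.27 (adjusted p 0.039). In the same comparison 2 of 15 luminal epithelial genes were lower (13.3%, all tested genes 4.56%) and 2 of 10 fibroblast genes were higher (20%, all tested genes 4.19%). Passing were 0 of 9 B lymphocyte, 0 of 5 T lymphocyte, 0 of 16 muscle and 0 of 10 proliferation genes (all tested genes 8.75%). Counted by sign alone, all 15 luminal genes were negative (median -0.39), as were 9 of 9 B lymphocyte genes (median -0.41), 5 of 5 T lymphocyte genes (median -0.27) and 11 of 16 muscle genes (median -0.09). The remaining cell lists leaned the other way. Negative were 0 of 10 fibroblast genes (median 0.24), 1 of 7 basal epithelial genes (median 0.20) and 4 of 12 adipocyte genes (median 0.16). So were 2 of 10 endothelial genes (median 0.12), 2 of 9 macrophage genes (median 0.10) and 3 of 10 proliferation genes (median 0.03). Over all tested genes 55.2% were negative (median -0.02). The mean of the luminal list ran from 7.55 to 9.92 in AL, 7.58 to 9.96 in AL+EX, 7.67 to 9.54 in CR and 8.40 to 9.47 in CR+EX. The part of these cell types in the differences of the ribosomal protein and translation genes was not tested.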

How the data were processed

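Affymetrix signals of 37 arrays were deposited by the authors as a linear intensity per probe set, made with GCOS version 1 per the submitters' processing notes. The 2% trimmed mean of each array lay between 500.17 and 500.23. Of 22690 probe sets, 20380 carried 1 gene symbol in the platform annotation, 691 several, 1555 none, and 64 were controls. Signals were analysed as log2(signal + 16) with the brightest probe set per gene, and the 25% of genes with the lowest mean were left out, leaving 9294 of 12393. Group means of all 37 arrays were fitted with limma 3.58.1 in R 4.3.3 (33 residual degrees of freedom, empirical Bayes with a trend), with Benjamini-Hochberg adjustment over all genes within each contrast and a threshold of 0.05. The code was checked on simulated data. The number of arrays limits the precision.

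The members and gene lists were chosen with earlier results of these data known. The members named were the 4 with the smallest p among those called in each direction of a contrast, the 3 with the smallest p in each averaged contrast and the interaction, the 3 with the largest and the 3 with the smallest residual SD, a preset list, paralogs and their partners, and members below the filter; of other lists, up to 2 called genes per direction. Runs are stretches of title numbers, tried as a block. Other alternatives were the offset, filter, scaling, choice of probe set, variance model, subsets of arrays, and each array left out. Promoter sequences are from RefSeq.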

Additional observations from a re-analysis of the deposited data

Results flagged for a closer look

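For 30 named members and the member mean, each group was checked for 1 array set apart from the others, and 9 groups held such an array; chance alone sets apart about 1 in 20 groups. Values are log2(signal + 16).

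Rpl41 read 10.67 on CR+EX array 7, where the next array of the group was at 13.61. Rpl22 read 10.58 on AL array 6 (next 11.27) and 10.84 on CR array 4 (next 11.36), so this large-subunit protein was set low in both a fed and a restricted group. Rpl27, also of the large subunit, read 11.16 on AL array 8 (next 12.71), an array whose Gapdh 3′ to 5′ ratio was 2.38. Rpl6 was highest at 13.37 on CR array 9 (next 13.10), although it was the member with the smallest spread.

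The 3 paralogs set apart were low, on arrays that all belong to run 4, where B lymphocyte genes were high. Rpl39l read 4.73 on CR array 8 (next 7.21), Rps4l read 7.27 on CR+EX array 8 (next 7.97) and Rps27l read 11.27 on CR array 9 (next 11.68). Rps27 was highest at 9.92 on AL+EX array 9 (next 8.75). That array is also of run 4. The causes were not tested.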

How the results depend on the processing

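In the averaged diet comparison 0 members passed under offsets of 1 and 64, no dim filter or a 50% one, median centring, the other 2 choices of probe set, no variance trend, array weights, and without arrays of high Gapdh ratio. Quantile normalization gave 8 calls and run as a block 11. Leaving out 1 array at a time gave 0 to 1: Rps7 without AL+EX array 3 or CR array 9, Rps25 without CR array 1 and Rpl39l without CR array 8. Of the alternatives chosen after seeing the data, leaving out run 4 gave 1 call and the probe sets listing several genes 1, while leaving out the 15 arrays with much B lymphocyte signal or the 3 low in Rpl41 gave 0. The planned removal of arrays above a wide gap in B lymphocyte genes was not run, since the widest gap was 0.55 log2. Among pairs of groups, quantile normalization gave 1 call for CR against AL and 1 for CR against AL+EX, and the run block 1 each for CR against AL, CR+EX against AL, CR+EX against AL+EX and CR against AL+EX. Wheel and interaction stayed at 0 under every alternative run.

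Of the single-gene values under the alternatives (each array left out aside), 477 kept their direction and call, 12 passed the threshold and 31 changed sign, all of uncalled members. In the averaged diet comparison, median centring turned Rpl22l1 to 0.0120, Rpl39 to 0.000205, Rpl6 to 0.0106 and Rplp0 to 0.0246, and array weights turned Rpl22l1 to 0.0238, Rpl39 to 0.0154 and Rplp0 to 0.00579. Quantile normalization turned Rpl3l to -0.0120 and Rplp2 to -0.0202, and the run block Rplp2 to -0.00265. The mean of all probe sets turned Rpl27 to -0.128, Rpl41 to -0.189, Rpl7l1 to -0.0272 and Rps6 to -0.00326, and the brightest probe set free of cross-matching suffixes turned Rpl13a to 0.0353. Without arrays of high Gapdh ratio, Rpl27 was at -0.0875, Rpl3l at -0.184, Rpl41 at -0.0962 and Rplp2 at -0.0444. Without arrays high in B lymphocyte genes, Rpl27 was at -0.0313, Rpl39 at 0.0836, Rpl41 at -0.0529, Rpl7l1 at -0.105, Rplp0 at 0.0568 and Rps6 at -0.0191. Without the 3 arrays low in Rpl41, Rpl3l was at -0.0165 and Rplp2 at -0.0378, and the interaction of Rpl41 was 0.051. Without run 4, Rpl39 was at 0.0312, Rpl7l1 at -0.0829 and Rplp0 at 0.0208. Leaving out 1 array, values ran from -0.0172 to 0.102 for Rpl27, -0.106 to 0.00311 for Rpl39, -0.0582 to 0.0788 for Rpl3l, -0.0513 to 0.256 for Rpl41, -0.149 to 0.101 for Rpl7l1 and -0.0209 to 0.0422 for Rplp2. The causes were not tested.

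No paired analysis was possible because the labels give the groups no shared replicate numbers. Signal over background limits the dim probe sets, Rpl14 and Rpl39l among them, and the number of arrays limits the interaction most.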

Other observations

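The array carries probe sets for 18S ribosomal RNA, the RNA partner of the small-subunit proteins. The 3′ one read between 6.55 and 7.80 on the log2 scale in all 8 arrays of run 1, and between 10.62 and 14.20 in all 18 arrays of runs 3 and 4. In run 2, 7 arrays read 6.07 to 8.01 and 4 read 10.65 to 14. Within run 2 the member mean was 11.87 to 11.99 on the 7 arrays low in 18S signal and 11.89 to 12.06 on the 4 high ones. The 12.06 came from AL array 3, which was also the only array of run 2 high in B lymphocyte genes. The rest of the 4 read 11.89 to 11.95.

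By group the 18S probe set ran from 6.55 to 13.81 in AL, 6.07 to 14 in AL+EX, 7.34 to 14.20 in CR and 6.24 to 13.51 in CR+EX, so every group held both kinds of array. What the split reflects was not tested.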
